A study of Mus musculus with 5 samples.

Results

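The genes described are 8 of major histocompatibility complex (MHC) class II antigen presentation, measured by RNA-seq in whole mouse liver. They are the class II chains H2-Aa, H2-Ab1 and H2-Eb1, the peptide editor subunits H2-DMa and H2-DMb1, the invariant chain Cd74, the transactivator Ciita and the protease Ctss. The 8 genes were taken by symbol, and each matched 1 of the 33589 rows of the deposited table. The 5 libraries were 3 of knockout livers (Lyve1-Cre;Hegfl/fl) and 2 of control livers (Hegfl/fl, without the Cre). Both groups carried floxed Heg1, came from males labelled as 6 weeks old, and were given a high-fat diet for 4 weeks, so neither a chow diet nor the Cre alone is represented. Lyve1 is a gene of lymphatic and liver sinusoidal endothelial cells, and the Cre is named for its promoter. Heg1, the targeted gene, had 0.45, 0.43 and 0.50 FPKM in the knockout libraries 1, 2 and 3 and 0.48 and 0.35 FPKM in the control libraries 1 and 2, the order in which values are given throughout. Its log2 fold change was 0.05 (SE 0.11, limma adjusted p = 0.934), and without knowing the floxed exon, a value over the whole gene in whole liver does not check the deletion.

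Class II molecules are pairs of an alpha and a beta chain that show peptides from endosomes to CD4 T cells. The invariant chain fills the groove of a new pair and leads it to the endosome, cathepsin S trims the invariant chain there, and H2-DM exchanges the remaining fragment for a peptide. CIITA is the coactivator that switches on the genes of the chains, the invariant chain and H2-DM. It acts through the factors RFX, CREB and NF-Y on a shared promoter module of X and Y boxes. In liver class II is carried by antigen-presenting cells such as Kupffer cells, dendritic cells and B cells, with low amounts in sinusoidal endothelium.

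The promoter letters are shown because class II genes are known to share this module. Promoter sequences were those of RefSeq (GRCm38.p6). Entries for 5 of the 8 members were read (H2-Aa, H2-Eb1, H2-DMa, H2-DMb1 and Ctss), and none was used for H2-Ab1, Cd74 and Ciita. The stretches run 5′ to 3′ on the strand of each gene. Capitals mark CCAAT, the Y box that NF-Y binds, read on either strand (ATTGG on the other), together with TGACGTCA, the cyclic AMP response element, in H2-Aa, with the X1 core (G, any base, AAC, any base, GATG) in H2-Eb1, and with a longer X1 pattern (C, any 3 bases, G, any 2 bases, AC, any 2 bases, ATG) in H2-DMb1, whose printed stretch ends before its Y box. The H2-Aa stretch is chr17:34287824-34287973 (minus strand), the H2-Eb1 stretch chr17:34305717-34305866 (plus strand) and the H2-DMb1 stretch chr17:34153093-34153122 (plus strand).
H2-Aa: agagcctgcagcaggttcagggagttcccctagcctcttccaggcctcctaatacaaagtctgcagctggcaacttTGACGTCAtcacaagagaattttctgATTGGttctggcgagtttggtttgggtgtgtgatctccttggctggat
H2-Eb1: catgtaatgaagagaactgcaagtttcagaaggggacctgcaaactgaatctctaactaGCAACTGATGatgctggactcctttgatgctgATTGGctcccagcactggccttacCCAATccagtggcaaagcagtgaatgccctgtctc
H2-DMb1: CCTAGTAACTGATGatgctaggctgattca

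The first 2 stretches are the 150 bases before the RefSeq start. That of H2-DMb1 covers 98 to 69 bases before the RefSeq start and lies inside the gene as GENCODE M21 draws it (34153072 to 34160230). All 4 motifs were searched on both strands of the 250 bases before each start. In H2-Aa the Y box began 48 bases and the response element 74 bases before the start. In H2-Eb1 Y boxes began 59 and 35 bases and the X1 core 91 bases before the start. In H2-DMb1 a Y box began 61 bases before the start, and both X1 patterns overlapped there, beginning 98 and 94 bases before it. Neither the first of the H2-DMa entries nor that of Ctss held any of the motifs, and a second H2-DMa entry held a Y box 198 bases before its start. Over all 32851 promoter entries, 33.8% held CCAAT, 2.10% the longer X1 pattern, 0.682% the X1 core and 1.55% TGACGTCA. The last 2 motifs were chosen after the member promoters had been read, and these matches are descriptions of letters, not of binding.

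The group means of the class II chains differed by less than the 2 control livers differed from each other. Values are FPKM, fragments per kilobase of transcript scaled to the total of mapped fragments. H2-Aa, the alpha chain of I-A (chromosome 17, 34282744 to 34287823, minus strand), had 49.90, 64.30 and 51.63 FPKM in the knockout livers and 32.17 and 64.32 FPKM in the control livers. H2-Ab1, its beta partner (chromosome 17, 34257689 to 34269419, plus strand), had 49.36, 51.86 and 50.54 FPKM in knockouts and 33.24 and 51.72 FPKM in controls. H2-Eb1, the beta chain of I-E (chromosome 17, 34305867 to 34316674, plus strand), had 43.84, 47.59 and 42.54 FPKM in knockouts and 28.24 and 49.21 FPKM in controls. In each of the 3 chains control 1 was lowest, control 2 was as high as the highest knockout or nearly so, and the groups overlapped. H2-Eb1 overlaps an annotated antisense gene, Gm20513, and whether counting used strand is not known here. Summed, the 3 chains made up 143, 164 and 145 FPKM in knockouts and 93.7 and 165 FPKM in controls. In whole liver, fewer cells that carry class II and less class II RNA per cell cannot be told apart. H2-Ea, the alpha partner of H2-Eb1, which several inbred strains do not express, was listed at 0 in all 5 libraries.

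The invariant chain and cathepsin S were likewise lowest in control 1 and highest in control 2. Cd74 (chromosome 18, 60803848 to 60812652) had 138.65, 148.83 and 124.02 FPKM in knockouts and 89.05 and 150.09 FPKM in controls. Ctss (chromosome 3, 95526786 to 95556403), the endosomal cysteine protease, had 32.58, 33.42 and 32.85 FPKM in knockouts and 17.40 and 41.24 FPKM in controls. The 3 knockouts lay within 1.03 times of each other for Ctss, between controls that differed by 2.37 times.

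Both subunits of the peptide editor had the highest fold changes of the 8 members. H2-DMa (chromosome 17, 34119541 to 34139101) had 6.79, 7.48 and 5.92 FPKM in knockouts and 2.11 and 6.11 FPKM in controls. H2-DMb1 (chromosome 17, 34153072 to 34160230) had 8.62, 7.61 and 4.94 FPKM in knockouts and 4.13 and 5.38 FPKM in controls. Control 2 lay inside the range of the knockouts in both, and knockout 3 was below it. H2-DMb1 has a close paralog beside it, H2-DMb2, and the annotated H2-DMa gene overlaps Brd2 on the other strand, so reads may be shared and these values are uncertain.

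Ciita (chromosome 16, 10480059 to 10528418) was near the lower end of what the table resolves. It had 0.38, 0.49 and 0.43 FPKM in knockouts and 0.22 and 0.51 FPKM in controls, with control 1 again lowest and control 2 highest. It overlaps Dexi on the other strand. Values have 2 decimals and sequencing depth is unknown, so the precision of so low a value cannot be given.

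**Figure D1:**
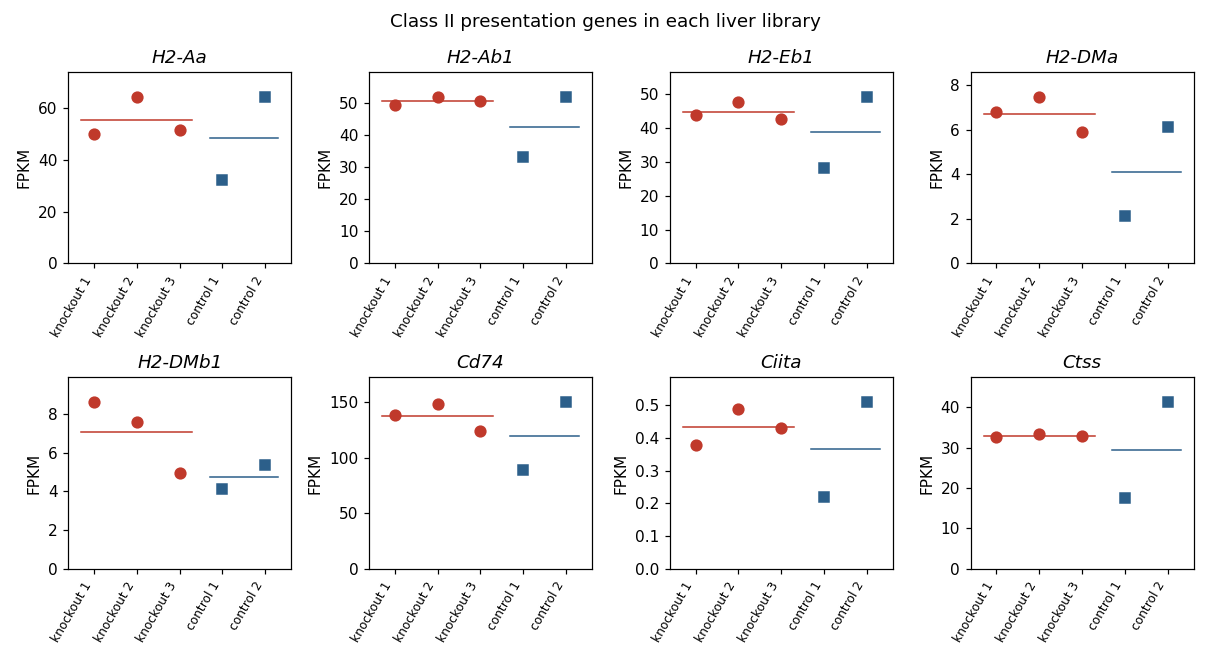
FPKM of each of the 8 genes in the 3 knockout livers (red circles) and the 2 control livers (blue squares), with the group mean as a line and each vertical axis starting at 0. Control 1 is the lowest library in all 8 panels, and control 2 is the highest in 5.

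No member passed the test for genotype. The test was limma on log2(FPKM + 1) with Benjamini-Hochberg adjustment over the 10820 genes with a mean of at least 1 FPKM, among which 0 genes passed (0.0%), while 757 had an unadjusted p below 0.05. Those 757 were 572 higher (5.29%) and 185 lower (1.71%) in knockouts, a split that became 310 and 362 with median-of-ratios scaling and 280 and 319 with quantile normalization. Of the 8 members 7 entered this fit, and Ciita was fitted among 14401 genes with a mean of at least 0.1 FPKM, where again 0 passed (0.0%). The largest log2 fold change, knockout minus control, was that of H2-DMa at 0.71 (SE 0.33, 95% interval -0.08 to 1.50, limma adjusted p = 0.718). H2-DMb1 followed with 0.46 (SE 0.23, limma adjusted p = 0.718). For the 3 chains the log2 fold changes were 0.26 (H2-Aa), 0.28 (H2-Ab1) and 0.25 (H2-Eb1), with SE of 0.28, 0.18 and 0.22, and those of Cd74, Ctss and Ciita were 0.24, 0.28 and 0.08. Over the 8 members adjusted p lay between 0.718 and 0.905, and 0 members had an unadjusted p below 0.05. On the scale of log2(FPKM + 1) the change of the low genes H2-DMa, H2-DMb1 and Ciita is understated, and with a pseudocount of 0.1 FPKM that of Ciita was 0.27.

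The sign of these fold changes rested on control 1. All 8 were above 0 with all libraries, as were 64.2% of all genes tested. That share was 50.7% with median-of-ratios scaling and 49.5% with quantile normalization, under which all 8 also stayed above 0. Without control 1, 6 of the 8 were below 0, namely Ctss at -0.32, H2-Aa at -0.22, H2-Eb1 at -0.14, Cd74 at -0.13, Ciita at -0.076 and H2-Ab1 at -0.032, while 58.5% of the 10820 genes stayed above 0. H2-DMa at 0.12 and H2-DMb1 at 0.31 kept their sign. Without control 2 the 8 fold changes lay between 0.23 for Ciita and 1.31 for H2-DMa, with Ctss at 0.88 and H2-Aa at 0.75. At that setting 6 of the 8 had an unadjusted p below 0.05, beside 4.2% of genes higher at that level, and the lowest limma adjusted p of a member was 0.816. No member passed without either control, nor did more than 1 gene (0.00924% without control 1, 0.0% without control 2). In both fits the lone control is assumed to vary like the knockouts. The groups overlapped for all 8 members, whereas they did not overlap for 24.0% of the 14401 genes with a mean of at least 0.1 FPKM. Every knockout was above control 1 for all 8 members (36.5% of those genes), and every knockout was below control 2 for 5 of the 8 (19.6%). Without control 1 the groups therefore did not overlap for 5 members and for 50.6% of genes, and without control 2 for 8 members and for 51.9% of genes.

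**Figure D2:**
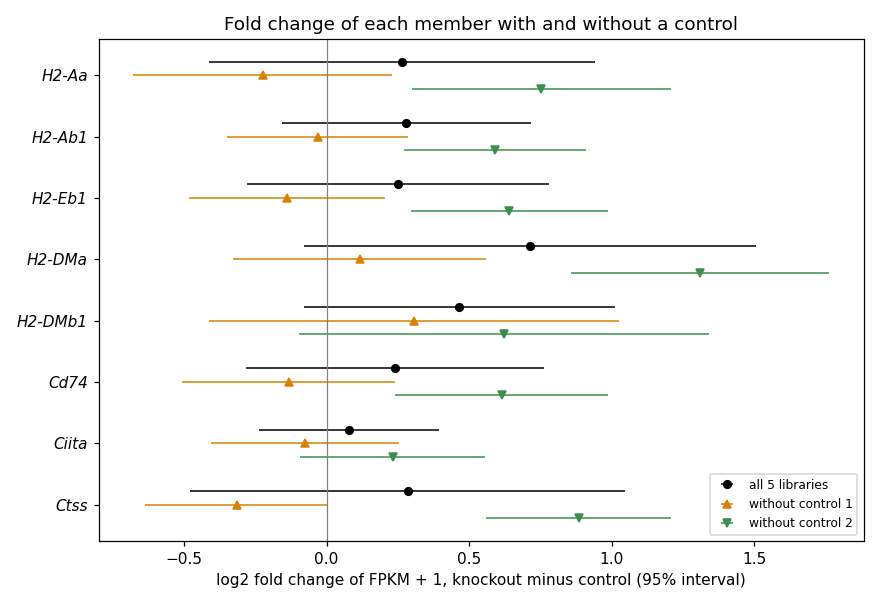
Log2 fold change of FPKM + 1, knockout minus control, for each gene with its 95% interval from limma, with all 5 libraries (black circles), without control 1 (orange triangles pointing up) and without control 2 (green triangles pointing down). With all libraries every interval includes 0, without control 2 those of 6 genes do not, and without control 1 the fold change of Ctss is -0.32, against 0.88 without control 2.

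The distance between the controls was wide for most of these genes beside the rest of the transcriptome, and less so for H2-DMb1. Control 1 was the lowest of the 5 libraries for all 8 members and for 27.6% of the 14401 genes. On the log2(FPKM + 1) scale control 2 exceeded control 1 by 1.20 for Ctss, 1.19 for H2-DMa, 0.98 for H2-Aa, 0.78 for H2-Eb1, 0.75 for Cd74, 0.62 for H2-Ab1 and 0.31 for H2-DMb1. The median over the 10820 genes was 0.03. Taken by size in either direction, the difference for Ctss was larger than that of 99.2% of those genes, and that for H2-DMb1 larger than that of 78.2%. Among knockouts the spread was narrow for Ctss and H2-Ab1, with a coefficient of variation of 1.30% and 2.47%, and widest for H2-DMb1 at 26.9%.

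**Figure D3:**
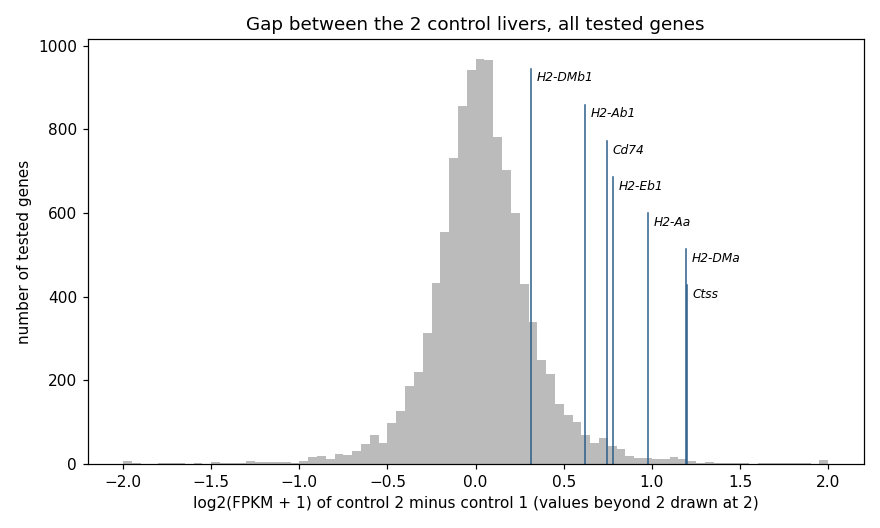
Histogram of the difference in log2(FPKM + 1) between control 2 and control 1 over the 10820 genes tested, with the 7 tested members as vertical lines. The genes pile up around a median of 0.03, while the lines run between 0.31 for H2-DMb1 and 1.20 for Ctss.

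By level, which FPKM give per transcript length, the order was Cd74, H2-Aa, H2-Ab1, H2-Eb1, Ctss, H2-DMb1, H2-DMa and Ciita. Cd74 lay above H2-Aa, Ctss above H2-DMb1 and H2-DMa above Ciita with ranges that did not overlap. The remaining neighbours overlapped across livers, and their order held in 5 of 5 libraries for H2-Ab1 over H2-Eb1 and for H2-Eb1 over Ctss, in 4 for H2-Aa over H2-Ab1 and in 3 for H2-DMb1 over H2-DMa. By mean FPKM Cd74 ranked 668 among the 10820 genes, H2-Aa 1377 and H2-DMa 6637.

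Over the 5 livers most proportions within the pathway varied less than the summed chains, whose low end was control 1. The ratio of Cd74 to the 3 chains was 0.969, 0.909 and 0.857 in knockouts and 0.951 and 0.908 in controls. The ratio of H2-Eb1 to H2-Ab1 was 0.888, 0.918 and 0.842 in knockouts and 0.850 and 0.951 in controls. Across the 5 livers these ratios varied by 1.13 times each, that of H2-Aa to H2-Ab1 by 1.28 times and that of Ctss to the 3 chains by 1.34 times. The summed chains varied by 1.76 times. Without control 1 the summed chains ran only from 143 to 165 FPKM. Among those livers H2-Aa over H2-Ab1 (1.01 to 1.24) and Ctss over the chains (0.204 to 0.250) varied relatively more than that, and the first 2 ratios less. The H2-DM genes varied more. The ratio of H2-DMb1 to H2-DMa was 1.27, 1.02 and 0.834 in knockouts and 1.96 and 0.881 in controls, a range of 2.35 times. Relative to the 3 chains, H2-DMa and H2-DMb1 together stood at 0.108, 0.0922 and 0.0750 in knockouts and at 0.0666 and 0.0695 in controls. This ratio did not overlap between the groups, was not tested, and was noticed after the values were seen. Among single genes, groups did not overlap for 24.0% of the 14401 with a mean of at least 0.1 FPKM. The H2-DM values in the ratio are uncertain, since reads may be shared with H2-DMb2 and Brd2.

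The 5 other class II chain genes with a row were near 0. H2-Oa and H2-Ob encode H2-DO, the partner that restrains H2-DM, and they had fold changes of opposite sign. H2-Ob had 0.43, 0.39 and 0.49 FPKM in knockouts and 0.17 and 0.14 FPKM in controls, with a log2 fold change of 0.31 (SE 0.10, limma adjusted p = 0.766). H2-Oa had 0.06, 0.19 and 0.06 FPKM in knockouts and 0.27 and 0.38 FPKM in controls, with a log2 fold change of -0.27 (SE 0.11, limma adjusted p = 0.773). The groups did not overlap for either gene, and neither gene passed. Groups did not overlap for 24.0% of the 14401 genes with a mean of at least 0.1 FPKM. H2-DMb2 had between 0.30 and 0.59 FPKM, and H2-Eb2 at most 0.03 FPKM.

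Endosomal proteases and other genes that handle class II or its antigens were taken next. Of the 11 listed, 10 were tested, 0 passed in either direction, 7 had a fold change above 0, and the median was 0.034. Without control 1, 4 had a fold change above 0 and the median was -0.062. For all genes tested the share above 0 was 64.2% and the median 0.06, against 58.5% and 0.044 without control 1. Ctsh, an aminopeptidase of the cathepsin family, averaged 178 ± 11.6 FPKM in knockouts and 214 ± 27.3 FPKM in controls. Ifi30, the thiol reductase GILT that opens disulfide bonds of antigens, had 20.83, 19.56 and 18.53 FPKM in knockouts and 12.02 and 19.09 FPKM in controls, the same low control 1 as the members. Marchf1, the ligase that removes class II from the surface, had 0.78, 0.71 and 0.82 FPKM in knockouts and 0.34 and 1.05 FPKM in controls.

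Among the factors that bind class II promoters or govern Ciita, 9 of 10 were tested and 0 passed. Of these, 8 had a fold change above 0, with a median of 0.11, against 7 and 0.064 without control 1. The share above 0 and the median of all genes were 64.2% and 0.06, against 58.5% and 0.044 without control 1. Rfx5, a subunit of RFX, averaged 3.29 ± 0.18 FPKM in knockouts and 2.56 ± 0.30 FPKM in controls (log2 fold change 0.27, SE 0.13, limma adjusted p = 0.718). Nfya, a subunit of NF-Y, had 6.04, 4.56 and 4.11 FPKM in knockouts and 2.89 and 3.63 FPKM in controls (log2 fold change 0.46, SE 0.18, limma adjusted p = 0.700). For both, every knockout was above either control, while groups did not overlap in either direction for 24.0% of the 14401 genes. Rfxap, another RFX subunit, had a fold change of -0.33, with 4.41, 5.03 and 6.27 FPKM in knockouts and 7.98 and 5.75 FPKM in controls.

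Interferon gamma, the classical inducer of Ciita, was at most 0.17 FPKM (Ifng). Of 16 genes of its pathway 13 were tested and 0 passed, 12 with a fold change above 0 and a median of 0.18. Over all genes tested, 64.2% had a fold change above 0 and the median was 0.06. Without control 1 the pathway had 7 genes above 0 and a median of 0.026, beside 58.5% and 0.044 for all genes. Its receptor subunit Ifngr2 had 6.11, 5.30 and 6.35 FPKM in knockouts and 4.65 and 4.03 FPKM in controls. Jak1, a kinase of the same pathway, had 27.39, 26.35 and 28.61 FPKM in knockouts and 23.30 and 20.91 FPKM in controls. Iigp1, a GTPase induced by interferon, had 116.81, 127.04 and 126.12 FPKM in knockouts and 94.97 and 92.94 FPKM in controls, with a log2 fold change of 0.39 (SE 0.09, limma adjusted p = 0.675). These 3, which had the smallest p of the list, had fold changes of 0.46, 0.38 and 0.40 without control 1. Cxcl9, a chemokine induced by interferon gamma, had instead 4.07, 9.81 and 4.61 FPKM in knockouts and 1.76 and 11.82 FPKM in controls. It was lowest in control 1 and highest in control 2, as were 5 of the 8 class II members.

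Class I presentation, which nearly all cells use, gave smaller differences between livers. All 13 listed genes were tested and 0 passed. Of these, 9 had a fold change above 0, with a median of 0.11, beside 64.2% and 0.06 for all genes. Without control 1 the class I list had 7 genes above 0 and a median of 0.034, beside 58.5% and 0.044 for all genes. Psmb9, an immunoproteasome subunit, averaged 18.1 ± 1.16 FPKM in knockouts and 14.4 ± 1.85 FPKM in controls, and Tap1, a peptide transporter subunit, 14.3 ± 1.96 and 10.8 ± 1.78 FPKM in the same order. Relative to the mean of the 5 livers on the log2(FPKM + 1) scale, the class I list stood at 0.07, 0.05 and 0.04 in knockouts and at -0.15 and -0.01 in controls. The 7 tested class II members stood at 0.16, 0.25 and 0.02 in knockouts and at -0.63 and 0.20 in controls. The median fold change of these 7 was 0.28, and -0.13 without control 1.

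**Figure D4:**
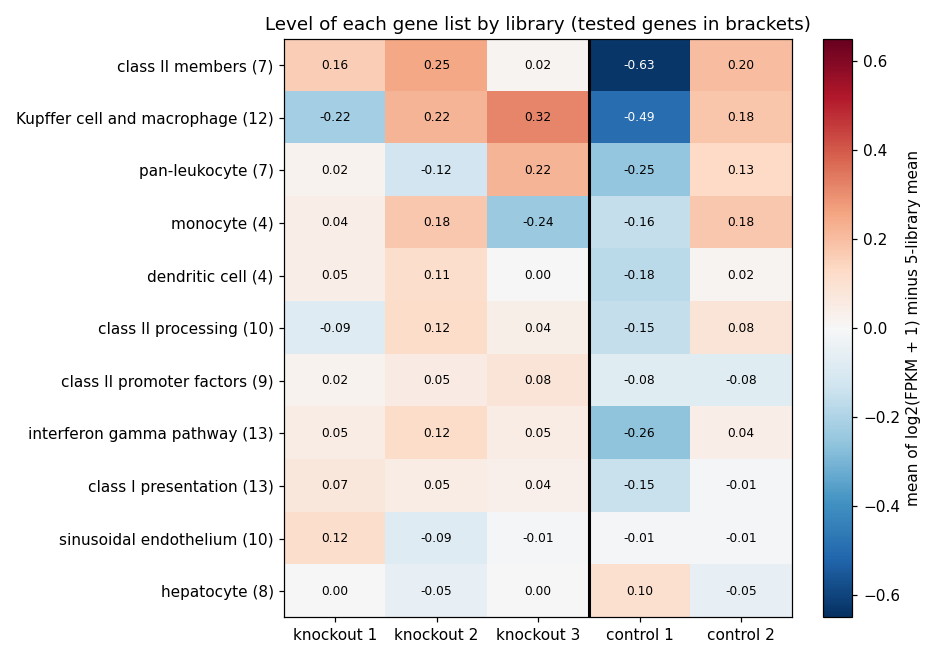
Mean of log2(FPKM + 1) over the tested genes of each list, minus the mean of the 5 libraries, by library (knockouts left of the line, controls right), with the number of tested genes in brackets. Control 1 is lowest for 8 of the 11 lists drawn, from -0.63 for the class II members and -0.49 for Kupffer cell and macrophage markers to -0.08 for the promoter factors, and is not lowest for monocytes, sinusoidal endothelium and hepatocytes.

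Markers of the cells that could carry class II were set beside these values, and their part in the result was not tested. Hepatocyte markers dominated each library, with Alb between 37676 and 51017 FPKM. Kupffer cell and macrophage markers were all tested (12 of 12) and 0 passed. Their summed level was 429, 556 and 535 FPKM in knockouts and 316 and 527 FPKM in controls, and 9 of the 12 were lowest in control 1. Clec4f, a lectin of Kupffer cells, had 87.49, 93.65 and 72.24 FPKM in knockouts and 59.13 and 90.62 FPKM in controls. Their median fold change was 0.23, and -0.13 without control 1. The pan-leukocyte list summed to between 42.4 and 53.9 FPKM in knockouts and to 38.7 and 53.2 FPKM in controls, with Ptprc, which encodes CD45, at 3.05, 2.81 and 2.81 FPKM in knockouts and at 1.73 and 2.06 FPKM in controls. Rac2, another leukocyte gene, was highest in control 1 at 10.95 FPKM.

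Dendritic cell markers were low, with 4 of 11 tested and summed levels of 6.69 to 7.87 FPKM in knockouts and of 5.40 and 6.57 FPKM in controls. Flt3, the growth factor receptor of dendritic cells, was at most 0.11 FPKM. B cell markers summed to 5.18 to 8.30 FPKM in knockouts and to 2.76 and 4.34 FPKM in controls, with 1 of 10 tested, and control 1 was again the lowest. Cd79a, a subunit of the B cell receptor, had 0.82, 0.35 and 0.60 FPKM in knockouts and 0.27 and 0.22 FPKM in controls. T and NK cell markers summed to between 3.18 and 5.59 FPKM in knockouts and to 2.46 and 3.19 FPKM in controls, with 0 of 10 tested. Monocyte markers summed to between 13.2 and 14.9 FPKM in knockouts and to 10.7 and 16.8 FPKM in controls. No marker of these cells was at 0 in all libraries. Sinusoidal endothelial markers, of the cells known to express Lyve1, summed to between 153 and 202 FPKM in knockouts and to 180 and 162 FPKM in controls. Hemoglobin was high in knockout 1, with Hbb-bs at 422.98 FPKM there and between 22.89 and 62.52 FPKM elsewhere.

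Set against macrophage transcripts, the class II chains varied less over the 5 livers than their own 1.76 times, a range whose low end was control 1. Divided by the sum of the complement genes C1qa, C1qb and C1qc, which macrophages express, the 3 chains gave 0.812, 0.756 and 0.787 in knockouts and 0.777 and 0.830 in controls. That ratio varied by 1.10 times over the 5 livers. Divided by the summed Kupffer cell and macrophage list the chains gave 0.334, 0.294 and 0.271 in knockouts and 0.296 and 0.313 in controls. That was a range of 1.23 times, and divided by Clec4f alone they varied by 1.26 times. Without control 1 the summed chains ran only from 143 to 165 FPKM. Among those livers their relative range was narrower than that of the list and Clec4f ratios, and wider than that of the C1q ratio. The C1q genes belong to that list and were singled out after their values were seen, and C1qc and C1qb are among the 10 genes nearest to the chains in pattern. Ctss over the C1q sum varied more, with 0.185, 0.154 and 0.179 in knockouts and 0.144 and 0.207 in controls.

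**Figure D5:**
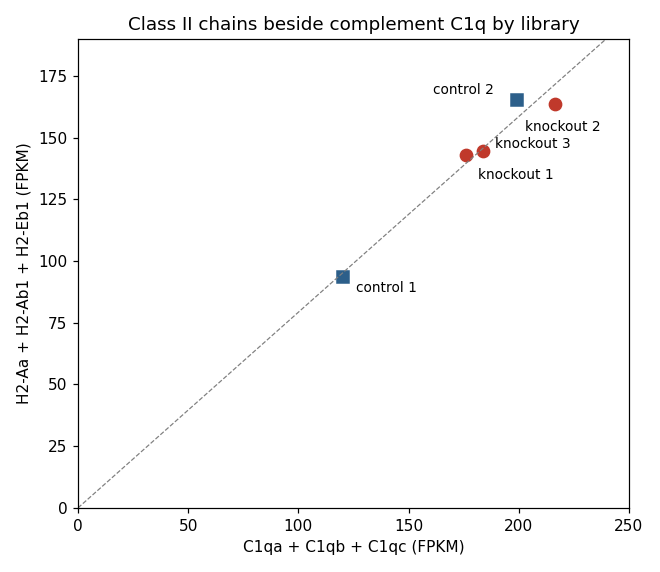
Sum of the 3 class II chains against the sum of the 3 C1q genes, both in FPKM, in the 3 knockout livers (red circles) and the 2 control livers (blue squares), with a dashed line at the mean ratio. The libraries lie near the line, with ratios between 0.756 and 0.830 (1.10 times, against 1.23 times for the whole macrophage list), the C1q genes having been chosen after their values were seen, and control 1 is low on both axes.

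The genes whose pattern over the 5 libraries was most like that of H2-Aa, H2-Ab1, H2-Eb1 and Cd74 were found by the root mean square difference of centred log2(FPKM + 1). The nearest were Ly86 at 0.0486, Gbp8 at 0.0614, Ifi204 at 0.0622, Hdac8 at 0.0638 and Fcgr4 at 0.0701, beside a median of 0.303 over the tested genes. Ly86, also called MD-1, had 4.73, 5.95 and 4.78 FPKM in knockouts and 3.02 and 5.46 FPKM in controls. Fcgr4, an Fc receptor of myeloid cells, had 6.03, 6.76 and 6.39 FPKM in knockouts and 4.21 and 7.27 FPKM in controls. C1qc and C1qb ranked 7 and 10. Of the remaining members, Ctss was at 0.144 (rank 149), H2-DMa at 0.261 (rank 2938) and H2-DMb1 at 0.276 (rank 3789). With 5 livers, these distances describe the livers and carry no test.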

How the data were processed

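The authors deposited FPKM per gene symbol from paired-end RNA-seq of total liver RNA, rounded to 2 decimals, in 2 tables whose 33589 rows were identical. Per the submitters' processing notes, HISAT2, StringTie, DESeq2 and the mm10 build were used. Their versions and roles, and whether counting used strand, are not given in the sources used here. Depth is unknown: in genes of 1 exon only 25.9% to 29.0% of low values lay within 0.1 of a whole multiple of a common step, and reads could not be recovered, so a count test was not used. FPKM sums were 797692 to 820498. The title speaks of hepatocytes and the labels of liver, and the values were read as whole liver.

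Genotype was tested with limma (version 3.58.1, under R 4.3.3, prior variance following the mean level) on log2(FPKM + 1), pseudocount 1, for genes with a mean of at least 1 FPKM, with genotype as the only term, two-sided, at a Benjamini-Hochberg threshold of 0.05. The code was tested on simulated data. The labels do not say that libraries come from separate animals, so the p-values rest on a spread that may be technical. Genes named were taken from the 8 members, up to 4 tested members per list with the smallest p, the first 2 markers of a cell type, preset genes, and the 5 nearest by pattern; others named were chosen after their values were seen. Members and lists were chosen with earlier results of these data known. Gene positions came from GENCODE M21 (GRCm38, also called mm10), matched by symbol.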

Additional observations from a re-analysis of the deposited data

How the results depend on the processing

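Filters on low values, pseudocounts, median-of-ratios scaling, quantile normalization and library weights left the direction of all 8 members, and the count of 0 members past the threshold, as reported, except that Ciita has no value with a filter of 5 FPKM. Its fold change of 0.08 became 0.27 and 0.13 with pseudocounts of 0.1 and 0.5 FPKM and 0.037 with quantile normalization. Genes past the threshold ranged from 0 to 1 when each library was left out, the 1 gene being Hamp without control 1 (its limma adjusted p was 0.00727, and it was named after its values were seen), and numbered 5 with the replicate block, of which 4 were higher and 1 lower (LOC108167922, Moxd1, Mup11, Mup16 and Mup9, likewise). None of those 5 was a member, the block fit changed no call of a member, and fold changes there lay between 0.08 for Ciita and 0.79 for H2-DMa. In that fit H2-DMa and H2-DMb1 had limma unadjusted p of 0.0284 and 0.00863 (adjusted p = 0.502 and 0.446). Knockout 3 has no same-numbered control, so its block takes up its values. The block fold changes, 0.79 for H2-DMa and 0.67 for H2-DMb1, therefore equal those without knockout 3, and the 2 settings are not separate checks. The labels do not say that the numbers pair livers. Deviations of same-numbered livers from their group means correlated at 0.23 and 0.20 across genes. The deviations of the 2 controls are mirror images of each other, so these values are not independent and cannot show pairing. Leaving out each library, log2 fold changes ranged from -0.22 to 0.75 for H2-Aa, -0.032 to 0.59 for H2-Ab1, -0.14 to 0.64 for H2-Eb1, -0.13 to 0.61 for Cd74, -0.076 to 0.23 for Ciita, -0.32 to 0.88 for Ctss and 0.12 to 1.31 for H2-DMa, with the lowest value without control 1 and the highest without control 2. For H2-DMb1 they ranged from 0.31 without control 1 to 0.67 without knockout 3 (limma unadjusted p = 0.00761, adjusted p = 0.790). Groups did not overlap for 5 members without control 1 (50.6% of genes) and for 8 without control 2 (51.9% of genes, and 36.5% with every knockout above control 1), settings chosen after seeing the data. The cause of these shifts was not tested. Depth is unknown, which limits Ciita, H2-Oa, H2-Ob and Ifng most.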
